A study of Mus musculus with 6 samples.

Results

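Pericytes wrap the endothelial tubes of capillaries and smooth muscle cells wrap the larger vessels, and together they are called mural cells. Pericytes are recruited by PDGF-B from endothelium through the receptor Pdgfrb, and in muscle they lie close to the satellite cells, the stem cells that rebuild muscle fibres. Smooth muscle cells carry a contractile apparatus whose genes are switched on by serum response factor (SRF) with its partner myocardin. The genes described here are 9 that are used to mark mural cells: Rgs5, Pdgfrb, Cspg4, Kcnj8, Abcc9, Mcam, Acta2, Myh11 and Tagln. They were taken by name from a file of 12067 genes, and all 9 were found in it. The choice was made with earlier results of these data known, and all 9 are reported whatever their values.

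RNA was measured in muscle stem cells of male C57BL/6 mice, sorted from limb muscle on VCAM after removal of cells with CD45, CD31 or Sca1. The cells were stained with ThiolTracker Violet, a dye for reduced glutathione (GSH) used at 5 uM, and sorted a second time. The 3 groups hold 2 libraries each: old GSH-low and old GSH-high cells from mice of 23 months, with 2 animals pooled per library, and young cells from mice of 4 months, with 1 animal per library. Young cells were not split by the dye, and per the labels almost all of them stained as GSH-high. None of the antigens of the gate is a product of the 9 genes. In RNA from bulk cells, fewer cells of a type and less RNA per cell cannot be told apart.

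Levels are RPKM, which set reads against both the length of the gene and the size of the library. Whole reads recovered from the values came to 46.92 to 68.68 M per library. A filter of at least 1 RPKM in 2 libraries kept 10609 genes, and log2(RPKM + 1) was fitted with limma. "Called" means a Benjamini-Hochberg adjusted p under 0.05 over all genes kept. Every test rests on 2 libraries per group, and nothing states whether the old fractions came from the same pools. Comparisons of the old groups with young cells share the young libraries and are not independent of each other. In them age cannot be told apart from the split by dye or from the number of animals per library. Positions are on GRCm38. Of the 9 genes 8 passed the filter. Tagln, which reached 1 RPKM in 0 of 6 libraries, did not.

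The 9 genes did not move together. Rgs5, Pdgfrb, Cspg4 and Kcnj8 were highest in old GSH-low, intermediate in old GSH-high and lowest in young cells, and Abcc9 was higher in both old groups than in young. Acta2 and Mcam were higher in young cells than in either old group. Myh11 was highest in old GSH-high cells, and Tagln was below 1 RPKM throughout.

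**Figure D1:**
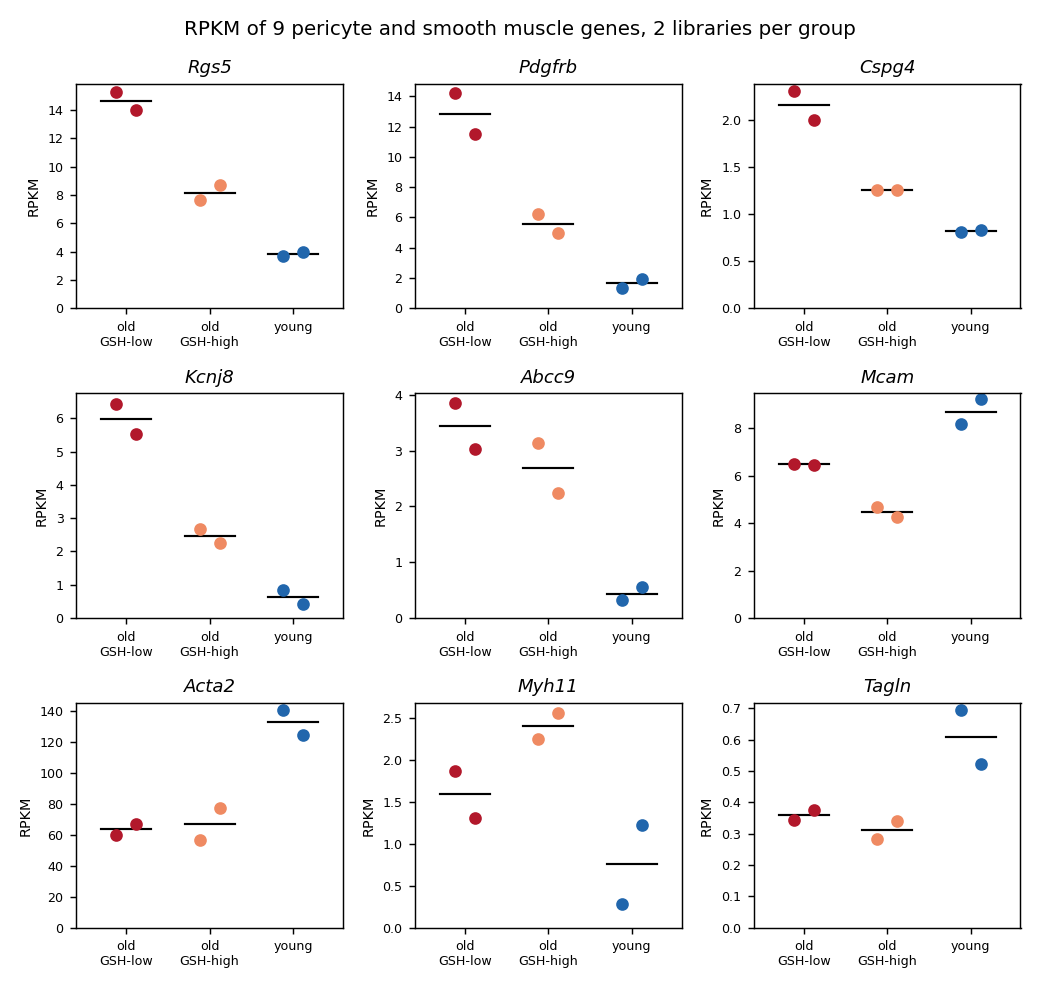
RPKM (vertical axes, each starting at 0) of the 9 genes in old GSH-low, old GSH-high and young libraries. Points are single libraries and black lines are the means of 2. Rgs5, Pdgfrb, Cspg4 and Kcnj8 step down from left to right without overlap, Acta2 and Mcam are highest in young cells, and the 2 young libraries stand far apart for Myh11, at 0.284 and 1.23 RPKM.

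Promoter sequences are shown for Rgs5 and Kcnj8, which were higher in old cells, and for the SRF-binding boxes of Acta2, which was lower in old cells, so that the sequences can be read beside these opposite patterns. They are RefSeq sequences on GRCm38.p6, written 5′ to 3′ on the gene's own strand. The table held 6 of the 9 genes. The window searched was the 250 bases before the RefSeq start. Capitals mark a CArG box, the site bound by SRF, or the letters TATATA. Both motifs read alike on either strand.

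Rgs5 promoter (chr1:169655251-169655500, plus strand): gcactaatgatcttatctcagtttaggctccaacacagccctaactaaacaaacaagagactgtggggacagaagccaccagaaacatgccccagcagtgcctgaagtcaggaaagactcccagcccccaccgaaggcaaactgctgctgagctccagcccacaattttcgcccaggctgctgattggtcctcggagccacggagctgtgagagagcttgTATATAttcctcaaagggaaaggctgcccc
Kcnj8 promoter (chr6:142571615-142571864, minus strand): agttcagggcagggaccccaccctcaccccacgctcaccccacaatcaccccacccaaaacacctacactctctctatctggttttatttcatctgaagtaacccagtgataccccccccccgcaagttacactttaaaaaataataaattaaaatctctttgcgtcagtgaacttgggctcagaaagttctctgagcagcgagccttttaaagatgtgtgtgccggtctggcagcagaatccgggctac
Acta2 distal box (chr19:34255438-34255467, minus strand): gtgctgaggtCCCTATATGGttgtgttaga
Acta2 proximal box (chr19:34255388-34255417, minus strand): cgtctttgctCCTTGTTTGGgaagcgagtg

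The Acta2 window held 2 CArG boxes, 84 to 75 and 34 to 25 bases before the RefSeq start, each with 1 G or C in its otherwise A/T centre. GENCODE M21 places the first exon of Acta2 over the same stretch, since its start lies further upstream. Such boxes occurred in 7.25% of 32817 mouse promoter windows of the same length, and strict boxes with a pure A/T centre in 1.47%. The Rgs5 window held TATATA 30 to 25 bases before the start, a motif found in 5.25% of windows. The Kcnj8, Abcc9, Cspg4 and Mcam windows held neither. GENCODE M21 also places the starts of Abcc9, Cspg4 and Mcam inside their windows, so part of each lies within the gene by that annotation. A match is a description of letters and not of binding.

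Rgs5 (chromosome 1, 169655501 to 169695813, plus strand) encodes a regulator of G-protein signalling that speeds the shut-off of heterotrimeric G proteins and is among the most used pericyte markers. It had 15.3 and 14 RPKM in the old GSH-low libraries, 7.62 and 8.70 RPKM in old GSH-high and 3.70 and 3.97 RPKM in young. The groups did not overlap, and each step was close to or above 1.8-fold in mean RPKM. The log2 fold change was 0.78 ± 0.10 (SE; adjusted p = 0.0018) for old GSH-low against old GSH-high, 0.92 ± 0.10 (adjusted p = 0.000237) for old GSH-high against young and 1.70 ± 0.10 (adjusted p = 4.73e-06) for old GSH-low against young. Rgs5 was called in all 14 alternative analyses of each comparison. It lay at percentile 74.6 of all genes in the file in old GSH-low, 61.2 in old GSH-high and 44.8 in young cells.

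Pdgfrb (chromosome 18, 61045150 to 61085061, plus strand), the receptor tyrosine kinase for PDGF-B and PDGF-D, had 14.2 and 11.5 RPKM in old GSH-low, 6.21 and 4.98 RPKM in old GSH-high and 1.31 and 1.95 RPKM in young libraries. Again no groups overlapped. Mean RPKM was 2.29-fold higher in old GSH-low cells than in the GSH-high fraction (log2 fold change 1.07 ± 0.15, adjusted p = 0.00371), 3.43-fold higher in old GSH-high than in young (1.33 ± 0.15, adjusted p = 0.000353) and 7.87-fold higher in old GSH-low than in young (2.40 ± 0.15, adjusted p = 9.02e-06). These calls also held in all 14 alternatives. Per unit of length the ratio of Rgs5 to Pdgfrb was 1.08 and 1.22 in old GSH-low libraries, 1.23 and 1.75 in old GSH-high and 2.82 and 2.04 in young libraries. Pdgfrb thus had the larger fold difference between each old group and young cells.

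Pdgfrb is also expressed by fibroblasts and tendon cells, in which it stands beside its relative Pdgfra, the receptor that marks fibro-adipogenic progenitors. Pdgfra averaged 1.32 RPKM in old GSH-low, 1.25 RPKM in old GSH-high and 0.231 RPKM in young cells. It was higher in old than in young cells (log2 fold change 0.87 ± 0.14 for old GSH-high against young, adjusted p = 0.0026) and was not called between the old fractions (0.03 ± 0.14, adjusted p = 0.936). The ratio of Pdgfrb to Pdgfra was 8.77 and 11.3 in old GSH-low libraries, 4.67 and 4.26 in old GSH-high and 9.75 and 5.94 in young libraries.

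Cspg4 (chromosome 9, 56865033 to 56899870, plus strand) encodes NG2, a surface proteoglycan of pericytes that binds growth factors and collagen VI. It had 2.31 and 2.00 RPKM in old GSH-low, 1.26 and 1.25 RPKM in old GSH-high and 0.810 and 0.827 RPKM in young libraries, with tight pairs and no overlap. It was called in all 3 comparisons, with log2 fold changes of 0.48 ± 0.10 (adjusted p = 0.0247), 0.31 ± 0.10 (adjusted p = 0.0443) and 0.79 ± 0.10 (adjusted p = 0.000409) for old GSH-low against old GSH-high, old GSH-high against young and old GSH-low against young. The first call ended without any 1 of the 4 old libraries (adjusted p from 0.0593 to 0.183). The second ended without any 1 of the 6 libraries (0.0578 to 0.18), with the 4 libraries alone (0.058) and with the replicate number as a block (0.0701).

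Kcnj8 and Abcc9 encode partner subunits of one channel, the ATP-sensitive potassium channel of vascular cells. Kcnj8 (chromosome 6, 142564837 to 142571614) is Kir6.1, which forms the pore, and Abcc9 (chromosome 6, 142587862 to 142702315) is SUR2, the sulfonylurea receptor that gates it. Both genes lie on the minus strand, 16.2 kb apart. Kcnj8 had 6.45 and 5.54 RPKM in old GSH-low, 2.67 and 2.26 RPKM in old GSH-high and 0.833 and 0.407 RPKM in young libraries. The fewest reads were 129 and 61, in young libraries. The groups did not overlap. Mean RPKM was 2.43-fold higher in old GSH-low cells than in the GSH-high fraction (log2 fold change 1.01 ± 0.14, adjusted p = 0.00334), 3.97-fold higher in old GSH-high than in young (1.11 ± 0.14, adjusted p = 0.000625) and 9.67-fold higher in old GSH-low than in young (2.12 ± 0.14, adjusted p = 1.19e-05), called in all 14 alternatives. Without young replicate 1, the higher of the young pair, the ratios to young were 6.05 for old GSH-high and 14.7 for old GSH-low, and without young replicate 2 the second was 7.2.

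Abcc9 had 3.85 and 3.03 RPKM in old GSH-low, 3.13 and 2.24 RPKM in old GSH-high and 0.318 and 0.551 RPKM in young libraries. The old fractions overlapped, and both lay far above the young libraries. Mean RPKM was 6.18-fold higher in old GSH-high than in young (log2 fold change 1.36 ± 0.15, adjusted p = 0.000304) and 7.92-fold higher in old GSH-low than in young (1.63 ± 0.15, adjusted p = 7.75e-05). Between the old fractions it was not called (0.27 ± 0.15, adjusted p = 0.37), and the 95% interval of the log2 difference ran from -0.07 to 0.62. The ratio of Kcnj8 to Abcc9 was 1.68 and 1.83 in old GSH-low libraries, 0.852 and 1.01 in old GSH-high and 2.62 and 0.74 in young libraries, where both rest on few reads. The relatives Kcnj11 and Abcc8, which form the channel of the pancreatic beta cell, were looked for and are not among the 12067 genes of the file.

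The 1 RPKM that is added before taking logs shrinks the fitted change of low genes. With limma-voom on the recovered reads, which adds no 1 RPKM, the log2 fold changes of Kcnj8 were 2.07 for old GSH-high against young and 3.35 for old GSH-low against young, and those of Abcc9 were 2.67 and 3.03. Cspg4 moved to 0.78, 0.62 and 1.39 in the order of comparisons given for it. All of these were called with voom as well.

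Mcam (chromosome 9, 44134469 to 44142727, plus strand) encodes CD146, an adhesion molecule of pericytes, smooth muscle and endothelium. It had 6.52 and 6.44 RPKM in old GSH-low, 4.69 and 4.25 RPKM in old GSH-high and 8.19 and 9.23 RPKM in young libraries. No groups overlapped, and the order differed from that of the other pericyte markers, with young cells highest and old GSH-high cells lowest. Mcam fell in old GSH-high against young (log2 fold change -0.83 ± 0.09, adjusted p = 0.000353) and in old GSH-low against young (-0.37 ± 0.09, adjusted p = 0.0147), and it was higher in old GSH-low cells than in the GSH-high fraction (0.45 ± 0.09, adjusted p = 0.0266). The call of old GSH-low against young needed both old GSH-low libraries, with an adjusted p of 0.0765 when replicate 1 was left out and 0.0738 when replicate 2 was. The call between the old fractions ended without any 1 of the 4 old libraries (adjusted p from 0.0878 to 0.232) and with the replicate number as a block (0.0628).

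Acta2 (chromosome 19, 34241090 to 34255590, minus strand), smooth muscle alpha-actin, was by far the most abundant of the 9. It had 60.1 and 67.3 RPKM in old GSH-low, 56.7 and 77.6 RPKM in old GSH-high and 141 and 125 RPKM in young libraries. The old fractions overlapped, and the young libraries lay above all 4 old ones. Acta2 fell by 1.05 ± 0.14 on the log2 scale in old GSH-low against young (adjusted p = 0.000672) and by 0.99 ± 0.14 in old GSH-high against young (adjusted p = 0.00122). Between the old fractions the log2 fold change was -0.06 ± 0.14 (adjusted p = 0.862), with a 95% interval from -0.39 to 0.26. Its sign turned without old GSH-high replicate 2 (0.16) or old GSH-low replicate 1 (0.02). Acta2 lay at percentile 97.0 of all genes in young cells, 93.9 in old GSH-high and 93.8 in old GSH-low.

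Its usual partners in the contractile apparatus were not at that level. Tagln (chromosome 9, 45929619 to 45936058, minus strand), transgelin or SM22-alpha, an actin-binding protein of smooth muscle, had 0.343 and 0.376 RPKM in old GSH-low, 0.284 and 0.341 RPKM in old GSH-high and 0.695 and 0.522 RPKM in young libraries. Reads were 35 and 36 in old GSH-low libraries, 39 and 42 in old GSH-high and 84 and 61 in young. The young libraries lay above the old ones, as for Acta2. In the fit without a filter on low genes its log2 fold change was -0.29 ± 0.09 for old GSH-high against young (adjusted p = 0.0508) and -0.24 ± 0.09 for old GSH-low against young (adjusted p = 0.0792), neither past the threshold. The antisense gene Gm48529 covers 62.4% of the exon bases of Tagln and the strand setting is not stated, so reads there cannot be assigned with certainty.

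The ratio of Acta2 to Tagln per unit of length was 175 and 179 in old GSH-low libraries, 200 and 227 in old GSH-high and 203 and 240 in young libraries. It thus stayed between 175 and 240 while Acta2 itself varied 2.48-fold among libraries. Acta2 made up 54.1% and 60.3% of the summed RPKM of the 9 genes in old GSH-low libraries, 66.9% and 74.5% in old GSH-high and 89.7% and 87.0% in young libraries.

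Myh11 (chromosome 16, 14194535 to 14291372, minus strand), the smooth muscle myosin heavy chain and the most specific marker of mature smooth muscle, had 1.87 and 1.31 RPKM in old GSH-low, 2.25 and 2.56 RPKM in old GSH-high and 0.284 and 1.23 RPKM in young libraries. The young libraries stood far apart, with 131 and 551 reads, and both lay below all 4 old ones. Myh11 was called for old GSH-high against young (log2 fold change 1.01 ± 0.23, adjusted p = 0.0118), and not for old GSH-low against young (0.60 ± 0.23, adjusted p = 0.0683) or between the old fractions (-0.40 ± 0.23, adjusted p = 0.387; 95% interval from -0.92 to 0.12). Old GSH-high replicate 2 decided the first call, which was lost without it (adjusted p = 0.057). Without young replicate 1 the changes were 0.61 for old GSH-high against young and 0.20 for old GSH-low against young, and without young replicate 2 they were 1.41 and 1.00, the last with adjusted p = 0.00236. With limma-voom old GSH-low against young was called too (1.42, adjusted p = 0.0311), and old GSH-high against young had 2.03.

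**Figure D2:**
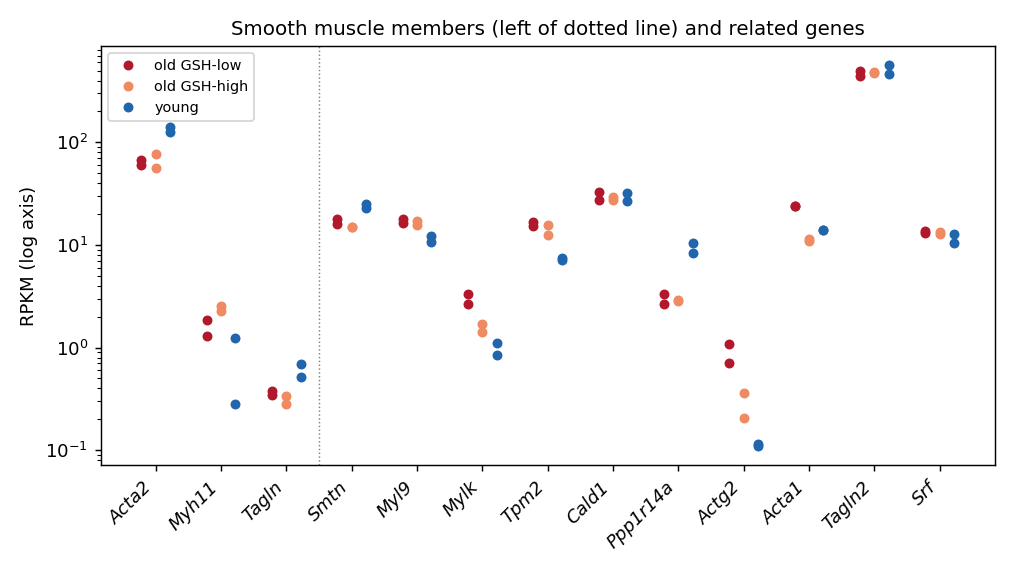
RPKM on a log axis of Acta2, Myh11 and Tagln (left of the dotted line) and of other contractile, actin and regulatory genes, by library. Acta2 lies between 56.7 and 141 RPKM in all 6 libraries, Tagln below 1 RPKM in all 6, and Myh11 at or below 2.56 RPKM.

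The other actins differed from Acta2 in pattern. Acta1, the skeletal muscle alpha-actin, averaged 23.8 RPKM in old GSH-low, 11.2 RPKM in old GSH-high and 13.9 RPKM in young cells, and it rose in old GSH-low against both other groups (log2 fold changes 1.03 and 0.74). Actc1, the cardiac form, averaged 0.392 RPKM in old GSH-low, 1.58 RPKM in old GSH-high and 1.57 RPKM in young cells. Actg2, the enteric smooth muscle actin, averaged 0.891 RPKM in old GSH-low, 0.284 RPKM in old GSH-high and 0.113 RPKM in young cells and did not pass the filter. Actb (beta-actin) and Actg1 (gamma-actin) of the cytoskeleton were not called in any comparison, with log2 fold changes from -0.21 to 0.07. Reads from stretches that the actins share cannot be assigned with certainty. Tagln2, the transgelin of non-muscle cells, averaged 469 RPKM in old GSH-low, 481 RPKM in old GSH-high and 516 RPKM in young cells and was not called, and the non-muscle myosins Myh9, Myh10 and Myh14 were not called either.

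Between the old fractions 5 of the 8 genes tested were called higher in old GSH-low and 0 lower by limma, and the counts were the same by limma-voom and at an unadjusted p under 0.05. Of all 10609 genes 3.69% were called higher, 1.69% lower and 5.38% in either direction. The 5 were Rgs5, Pdgfrb, Cspg4, Kcnj8 and Mcam, and the median log2 fold change of the 8 was 0.47, against -0.01 over all genes. Because the genes were chosen with earlier results of these data known, these counts are a description. Without any 1 of the 4 old libraries the count was 3, namely Rgs5, Pdgfrb and Kcnj8.

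In old GSH-high against young, 6 of the 8 were called higher and 2 lower, where 15.1% of all genes were called higher, 13.7% lower and 28.8% in either direction. The 2 that fell were Acta2 and Mcam. In old GSH-low against young, 5 were called higher and 2 lower, where 18.1% of all genes were called higher, 18.7% lower and 36.8% in either direction. The medians of the 8 genes were 0.96 for old GSH-high and 1.21 for old GSH-low against young, against values within 0.021 of 0 over all genes. A gene that passed the filter only through the old groups, as Cspg4, Kcnj8 and Abcc9 did with 4 libraries at or above 1 RPKM, had to be higher in old cells, so these counts are a description.

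**Figure D3:**
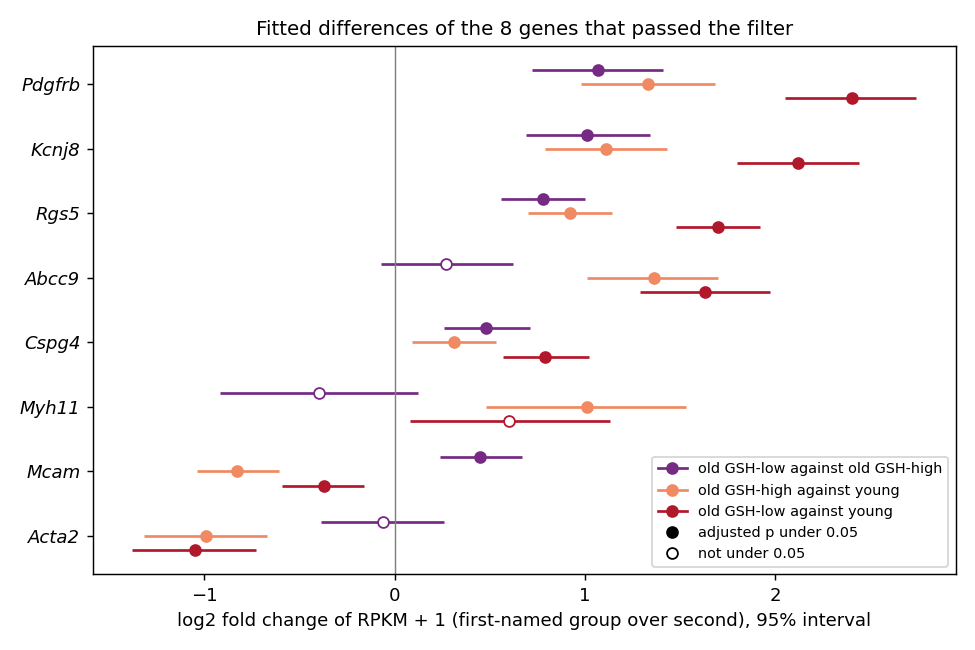
Log2 fold changes of RPKM + 1 (horizontal axis) with 95% intervals for the 8 genes that passed the filter, in 3 comparisons. Filled points are called and open points are not. Pdgfrb, Kcnj8, Rgs5 and Abcc9 lie right of 0 for both old groups against young, by 0.92 to 2.40, and Acta2 lies left of it by about 1 in both.

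By level, Acta2 came first in every group. It was followed by Rgs5, Pdgfrb, Mcam and Kcnj8 in old GSH-low cells, where the ranges of Rgs5 and Pdgfrb overlapped, as did those of Mcam and Kcnj8. In old GSH-high cells the order was Rgs5, Pdgfrb, Mcam and then Abcc9, Kcnj8 and Myh11, and the ranges of those last genes overlapped. In young cells Mcam came second and Rgs5 and Pdgfrb after it, and the wide range of Myh11 covered those of Cspg4, Kcnj8, Tagln and Abcc9. Summed over the 8 genes without Acta2, levels were 50.9 and 44.2 RPKM in old GSH-low, 28.1 and 26.6 RPKM in old GSH-high and 16.1 and 18.7 RPKM in young libraries. The ratio of Pax7, the transcription factor that defines satellite cells, to Pdgfrb was 0.787 and 1.10 in old GSH-low libraries, 1.30 and 1.74 in old GSH-high and 6.04 and 3.92 in young libraries.

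A wider list of 41 pericyte genes had 26 members tested. Of these 8 were called higher and 0 lower by limma in old GSH-low against old GSH-high, where limma-voom gave 7 and 1, and an unadjusted p under 0.05 gave 12 and 2. The limma counts were 16 higher and 4 lower in old GSH-high against young, and 19 higher and 3 lower in old GSH-low against young. The medians of the 3 comparisons were 0.09, 0.54 and 0.76. Over all genes 3.69%, 15.1% and 18.1% were called higher in them. The list was drawn up with earlier results of these data known, and it holds genes that other cells share. Among those with the smallest p between the old fractions were Aspn (asporin, a matrix proteoglycan that tendon also makes; log2 fold change 1.71), Colec11 (a collectin; 0.96) and Gja4 (connexin 37, shared with arterial endothelium; 1.39). Gja4 averaged 10.6 RPKM in old GSH-low, 3.47 RPKM in old GSH-high and 1.66 RPKM in young cells.

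Against young cells, P2ry14 (a receptor for UDP-sugars) rose by 1.94 on the log2 scale in old GSH-high and by 1.90 in old GSH-low, and Sparcl1 (a matrix protein of the vessel wall) by 1.69 and 2.04. Steap4 (a metalloreductase) rose by 1.40 in old GSH-high. Ebf1 (a transcription factor of mural cells and B cells) rose by 1.84 in old GSH-low against young and by 0.71 against old GSH-high. The 3 that fell in old GSH-low also fell in old GSH-high. They were Des, Lamc3 and Nes, which encode desmin, a laminin chain and nestin. Desmin and nestin are intermediate filaments that satellite cells express as well. Notch3, the receptor that mural cells need for their maturation, averaged 55.3 RPKM in old GSH-low, 61.0 RPKM in old GSH-high and 48.8 RPKM in young cells and was not called. Notch3 is also made by satellite cells.

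Of 35 further smooth muscle contractile genes tested, 4 were called higher and 2 lower in old GSH-low against old GSH-high, 11 higher and 8 lower in old GSH-high against young, and 12 higher and 5 lower in old GSH-low against young, with medians of 0.09, 0.12 and 0.16. Over all genes the shares called higher and lower were 3.69% and 1.69%, 15.1% and 13.7%, and 18.1% and 18.7% in those comparisons. Mylk (the kinase that phosphorylates myosin light chain) averaged 2.99 RPKM in old GSH-low, 1.57 RPKM in old GSH-high and 0.975 RPKM in young cells and was called in all 3 comparisons. Between the old fractions Mylk, Crispld2, Filip1l and Pdlim7 were higher in GSH-low (log2 fold changes 0.63, 0.50, 0.47 and 0.35). Pcp4l1 and Sncg, list members that are not themselves contractile proteins, were lower in GSH-low (log2 fold changes -0.78 and -0.90). Crispld2 (a secreted protein) had the smallest p against young, with log2 fold changes of 2.44 in old GSH-low cells and 1.94 in the GSH-high fraction.

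Contractile genes went both ways in old cells against young. Ppp1r14a (CPI-17, an inhibitor of myosin phosphatase) averaged 3.0 RPKM in old GSH-low, 2.88 RPKM in old GSH-high and 9.41 RPKM in young cells, and its log2 fold change was -1.42 in old GSH-high against young. Fhl1 (a LIM-domain protein of striated and smooth muscle) had log2 fold changes of -0.90 in old GSH-high and -1.12 in old GSH-low against young. Cnn2, the non-muscle calponin, was higher, with 0.99 in old GSH-high and 1.29 in old GSH-low against young.

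Of 15 regulators of the SRF programme tested, 0 were called between the old fractions by limma and 0 by limma-voom, with 2 at an unadjusted p under 0.05. Srf itself averaged 13.3 RPKM in old GSH-low, 13.0 RPKM in old GSH-high and 11.6 RPKM in young cells and was not called. Against young 3 regulators were called higher and 2 lower in old GSH-high, and 3 higher and 1 lower in old GSH-low. The share of all genes called between the old fractions was 5.38%. Against young, 15.1% of all genes were called higher and 13.7% lower in old GSH-high, and 18.1% and 18.7% in old GSH-low. Fhl2, a cofactor that SRF also induces, fell by 1.17 on the log2 scale in old GSH-high and by 1.23 in old GSH-low. Mef2a, a transcription factor of muscle, rose by 0.52 in old GSH-high and by 0.46 in old GSH-low, and Yap1, a coactivator of the Hippo pathway, by 0.44 in old GSH-high and by 0.39 in old GSH-low.

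Ligands of Pdgfrb were low. Pdgfb, the ligand through which endothelium recruits pericytes, averaged 0.492 RPKM in old GSH-low, 0.525 RPKM in old GSH-high and 1.03 RPKM in young cells and did not pass the filter. Pdgfd, the other ligand of this receptor, averaged 1.39 RPKM in old GSH-low, 1.16 RPKM in old GSH-high and 0.299 RPKM in young cells, and it rose against young by 0.88 in old GSH-low and by 0.73 in old GSH-high. Of the 9 genes of PDGF ligands, receptors and adaptors tested, 0 were called between the old fractions by limma and 0 by limma-voom, with 2 at an unadjusted p under 0.05. Against young the limma calls were 3 higher and 1 lower in old GSH-high and 4 higher and 2 lower in old GSH-low. Among all genes 5.38% were called between the old fractions. The shares higher and lower against young were 15.1% and 13.7% in old GSH-high, and 18.1% and 18.7% in old GSH-low.

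Rgs5 was compared with its family. Of 6 other RGS genes tested, 2 were called higher between the old fractions, 1 higher and 3 lower in old GSH-high against young, and 3 higher and 1 lower in old GSH-low against young. The shares of all genes called higher and lower were 3.69% and 1.69%, 15.1% and 13.7%, and 18.1% and 18.7% in those comparisons. Rgs2 and Rgs16, which are induced by stimulation, were higher in old GSH-low cells than in the GSH-high fraction, by 1.13 and 1.11 on the log2 scale. Against young both were lower in old GSH-high (-0.43 each) and higher in old GSH-low (0.70 and 0.68), unlike Rgs5, which was higher in both. Rgs4 averaged 51.7 RPKM in old GSH-low, 49.7 RPKM in old GSH-high and 34.7 RPKM in young cells and was called against young for each old group.

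Markers of other cell types moved between the same libraries, and their part in these results was not tested. For the counts that follow, 3.69% of all genes were called higher and 1.69% lower between the old fractions. Against young the shares were 15.1% and 13.7% in old GSH-high, and 18.1% and 18.7% in old GSH-low. Endothelial markers, which would come with vessel fragments, were lower in old GSH-low cells than in the GSH-high fraction in 13 of 14 tested, and their summed level was 22.9 to 28.5 RPKM in old GSH-low, 94.8 to 96.9 RPKM in old GSH-high and 42.6 to 49.5 RPKM in young libraries. Rgs5, Pdgfrb, Cspg4 and Kcnj8 had the opposite order between the old fractions. Myh11 had its highest mean in old GSH-high, as the endothelial sum did, but was not called between the old fractions. The defining endothelial gene Pecam1, which encodes the CD31 that the sort excluded, averaged 1.15 RPKM in old GSH-low, 6.76 RPKM in old GSH-high and 2.41 RPKM in young cells. Tek, which was not called between the old fractions, was the largest part of the endothelial sum in old GSH-low, with a mean of 10.8 RPKM.

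The summed tenocyte markers had the same order of groups as Rgs5 and Pdgfrb. The fibro-adipogenic, lymphocyte and Schwann cell sums given below had that order too. All 11 tenocyte markers were called higher in old GSH-low cells than in the GSH-high fraction, with log2 fold changes from 0.60 (Mkx) to 2.20 (Cilp2) and a median of 1.87. Against young 10 of 11 were called higher in old GSH-high, Scx (0.09, adjusted p = 0.563) being the exception, and 11 of 11 in old GSH-low. The summed levels, of which Fmod and Thbs4 made up the greater part in old cells, were 2730 to 3130 RPKM in old GSH-low, 667 to 839 RPKM in old GSH-high and 48.0 RPKM in both young libraries. Of 13 markers of fibro-adipogenic progenitors 3 were higher and 2 lower between the old fractions, 10 higher and 1 lower in old GSH-high against young, and 9 higher and 2 lower in old GSH-low against young. Their sums were 1870 to 2000 RPKM in old GSH-low, 1340 to 1370 RPKM in old GSH-high and 1130 to 1230 RPKM in young libraries. Gsn was the largest part of these sums, with means of 903, 758 and 638 RPKM in the same order of groups.

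Myofibre markers summed to 64.6 to 68.3 RPKM in old GSH-low, 27.2 to 30.3 RPKM in old GSH-high and 47.8 to 48.2 RPKM in young, with 8 of 9 higher between the old fractions. Atp2a1 was the largest part of the young myofibre sum, with a mean of 24.1 RPKM. Lymphocyte markers summed to 106 to 114 RPKM in old GSH-low, 14.6 to 18.9 RPKM in old GSH-high and 3.19 to 3.89 RPKM in young, with 4 of 4 higher between the old fractions. Most of that sum was Cd74, an MHC class II chaperone that other antigen-presenting cells make as well, with 98.4 and 92.8 RPKM in old GSH-low, 12.7 and 16.8 RPKM in old GSH-high and 2.86 and 2.18 RPKM in young libraries. Macrophage markers summed to 42.0 to 45.1 RPKM in old GSH-low, 34.6 to 47.2 RPKM in old GSH-high and 6.31 to 9.29 RPKM in young, with 8 of 8 called higher in each old group against young. Schwann cell markers summed to 152 to 161 RPKM in old GSH-low, 137 to 146 RPKM in old GSH-high and 112 to 124 RPKM in young, with 3 higher and 1 lower of 8 between the old fractions. Pmp22 made up most of the Schwann sum, with means of 110, 94.0 and 83.4 RPKM in the same order of groups. Markers of satellite cells summed to 2670 to 2810 RPKM in old GSH-low, 3090 to 3270 RPKM in old GSH-high and 3310 to 3530 RPKM in young libraries. Of these 12 markers 1, Pax7, was called between the old fractions. Unlike the sum, Pax7 was higher in old GSH-low (log2 fold change 0.46, adjusted p = 0.0225). Its means were 11.9, 8.37 and 7.79 RPKM in old GSH-low, old GSH-high and young. Against young 0 of the 12 satellite markers were called higher and 3 lower in old GSH-high, and 1 higher and 5 lower in old GSH-low. Sdc4 was the largest part of the satellite sum, with means of 1400, 1610 and 1850 RPKM in old GSH-low, old GSH-high and young. Zeros appear to have been replaced by small values in the deposited data, so no marker sum could be 0. Ptprc, the gene of the excluded CD45, averaged 0.574 RPKM in old GSH-low and 0.0815 RPKM in old GSH-high. Ly6a, the gene of the excluded Sca1, averaged 5.74 RPKM in old GSH-low, 26.4 RPKM in old GSH-high and 8.81 RPKM in young cells.

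**Figure D4:**
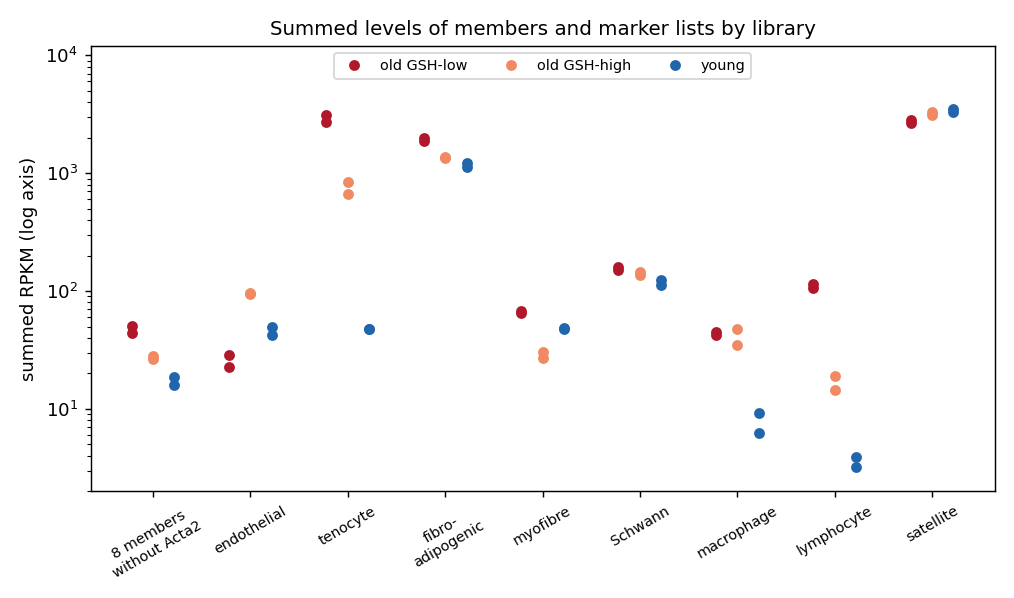
Summed RPKM on a log axis of the 8 genes without Acta2 and of marker lists of other cell types, for each library of the 3 groups. The 8 genes sum to 44.2 and 50.9 RPKM in old GSH-low, above old GSH-high and young. The tenocyte, fibro-adipogenic, lymphocyte and Schwann lists have the same order of groups, while the endothelial and satellite lists are lowest in old GSH-low.

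For 4 of the genes the most similar profiles were sought among 6575 genes, by the root-mean-square distance between centred log2(RPKM + 1) values over the 6 libraries. Nearest to Rgs5 were Tnc (tenascin-C, a matrix glycoprotein that is also among the tenocyte markers; distance 0.097), Cxcl12 (a chemokine; 0.107) and Twist1 (a transcription factor of mesenchyme; 0.135). Nearest to Pdgfrb were Tmem204 (0.085), Ptgis (prostacyclin synthase; 0.11) and Dkk3 (a secreted glycoprotein; 0.118). Ptgis had 12.9 and 10.4 RPKM in old GSH-low, 5.01 and 4.09 RPKM in old GSH-high and 1.43 and 1.55 RPKM in young libraries.

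Nearest to Acta2 were C1qtnf3 (a secreted protein; 0.076), Glipr2 (0.089) and Selenoh (a selenoprotein; 0.108). C1qtnf3 had 69.2 and 79.7 RPKM in old GSH-low, 61.3 and 79.0 RPKM in old GSH-high and 149 and 143 RPKM in young libraries. Nearest to Mcam were Bbc3 (PUMA, a trigger of apoptosis; 0.091), Mapt (tau, a microtubule-binding protein; 0.091) and Nfic (a transcription factor; 0.1). With 6 libraries in 3 groups many genes share such a profile, so these are a description of likeness alone.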

How the data were processed

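The authors deposited 1 table of RPKM for 6 libraries. RNA was copied with oligo(dT) and read as single ends, per the labels. Per the submitters' processing notes, Trim Galore, STAR, featureCounts (Subread) and edgeR were used with GRCm38 (mm10); versions and strand are not given in the sources used here. RPKM were tested for being whole reads: within 0.02 reads plus a relative 3e-07 this held for 12065 of 12067 genes (99.98%), and 230 values equal to 0.5 times a gene's lowest other value were read as replaced zeros, none of them in the 9 genes. GENCODE M21 held 11988 of the symbols.

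Values were fitted as log2(RPKM + 1) with limma-trend (limma 3.58.1, R 4.3.3) over all 6 libraries with 3 group means, which leaves 3 residual degrees of freedom, and adjusted over 10609 genes. The fit was tested on simulated data. Members, lists and tests were chosen with earlier results of these data known. From each list at most 4 called genes per comparison, in order of p, and direct relatives of the 9 genes were named. Notch3, Srf, Des, Lamc3, Nes, Pax7, Pecam1, Ptprc, Mkx, Cilp2, Scx, Fmod, Thbs4, Cd74, Filip1l, Pdlim7 and the non-muscle myosins were added after their values were seen. So were Pmp22, Gsn, Sdc4, Atp2a1, Tek and Ly6a. Alternatives were a pseudocount of 0.1, no filter or a filter of 4 libraries, limma-voom on recovered reads, other scalings, the 4 libraries of a comparison, a replicate block and each library left out. Python 3.11.15 with matplotlib 3.10.9 drew the figures. Some genes that the rule would name are not reported here.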

Additional observations from a re-analysis of the deposited data

How the results depend on the processing

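Of 336 values of the 8 genes under 14 alternatives, 312 kept their direction and their side of the threshold, 20 lost a call, 2 gained one and 2 turned. Both that turned were Acta2 between the old fractions, at 0.1611 without old GSH-high replicate 2 and 0.0185 without old GSH-low replicate 1. Over the libraries left out in turn its log2 fold change ran from -0.2847 to 0.1611. Direction could not turn in every alternative. The fold change is the same by construction under another filter, with the 4 libraries alone, with the block or without a library of the third group. Leaving out 1 library gave 3 to 5 of the 9 genes called for old GSH-low against old GSH-high (5 as reported), 6 to 7 for old GSH-high against young (8) and 6 to 8 for old GSH-low against young (7). Over all genes, 571 were called between the old fractions, 864 with the 4 libraries alone and 312 to 863 with 1 library left out. Those counts were 1493 to 3802 for old GSH-high against young (3051) and 2068 to 4295 for old GSH-low against young (3901). With a replicate block 4, 7 and 7 of the 9 genes were called in the order above, and 479, 2559 and 3350 of all genes. The labels do not say that replicate numbers mark shared animals, and deviations of same-numbered old libraries correlated at 0.0695, so the block rests on a shared number alone. Scaling by median-of-ratios or library size moved no call of the 8 genes. Depth limits Tagln most, with 35 to 84 reads per library.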
